A study of Mus musculus with 30 samples.

Results

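The cells described here are GFP-negative mesenchymal cells of the mouse small intestine, set against the unsorted small intestine preparation. The members were 5 of the 30 samples of the series, chosen by their labels: the 3 libraries labelled Tomato, which are the GFP-negative sort, and unsorted libraries 2 and 3 (unsorted library 1 was not analysed here). The table that holds them lists 15655 genes. All of these mice were normal C57BL/6 animals with the genotype ColVI-cre, Rosa mTmG, and all cells were freshly isolated. In such mice every cell carries a membrane Tomato reporter until Cre recombinase exchanges it for membrane GFP, and the Cre here is driven by Col6a1 regulatory sequence. A Tomato signal therefore marks the absence of past Cre activity and not a cell type by itself. The 3 GFP-negative libraries are labelled as mesenchymal cells and the unsorted ones as intestinal cells. The high GFP sort and the low GFP sort of the same tissue, with 3 libraries each, served as the other populations for comparison. The labels used here state no age, and they do not say whether replicates came from separate animals, so the p-values below measure only the spread between these libraries.

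The mesenchyme of the intestine surrounds the epithelial crypts and villi. Its fibroblasts make the matrix and tune the gradients that keep epithelial stem cells at the crypt base, with R-spondins and antagonists of bone morphogenetic proteins (BMPs) on the stem cell side and BMP ligands towards the villus. Fibroblasts expressing Pi16 are known from the adventitia of vessels in many tissues, and in mouse intestine Cd81-positive fibroblasts below the crypts, called trophocytes, are known for Ackr4, Grem1 and R-spondins. Telocytes, which express Pdgfra strongly together with Foxl1 and BMP ligands, lie directly under the epithelium. An unsorted intestinal preparation also holds epithelial cells, plasma cells, other leukocytes and vessels.

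RNA was profiled by 3' end sequencing, in which each transcript contributes a tag near its poly(A) tail, and the values below are the authors' normalised counts. From the size of the smallest steps between values, the GFP-negative libraries held an estimated 1228000 to 3196000 reads and the unsorted libraries 2834000 to 3525000. One read was worth 0.718 to 1.93 normalised counts in the GFP-negative libraries and 0.708 to 0.805 in the unsorted ones. More genes were listed at 0 in GFP-negative libraries (2495, 2282 and 1201 genes) than in unsorted libraries (235 and 464), also in GFP-negative library 3, which held more estimated reads than unsorted library 3. Across genes, which are not independent replicates, the log2 values of the 2 unsorted libraries had a Pearson correlation of 0.910, and those of the GFP-negative libraries ranged from 0.724 to 0.786.

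Genes were tested with limma on log2(normalised count + 1), which understates the change of low genes, and a gene passed at an adjusted p under 0.05 (Benjamini-Hochberg over all genes tested). Of 13374 genes tested, 1543 passed (11.5%). In GFP-negative cells 612 genes were higher (4.58% of those tested) and 931 were lower (6.96%). Counts of list members against unsorted cells are read against these shares, and a single member that passed is not a result about its list. The median log2 fold change of all genes was -0.26, and changes below are read against it. The groups had no overlapping values for 2457 genes that were higher (18.4%) and 3747 that were lower (28%). At an unadjusted p under 0.05 there were 3701 genes in either direction, and unadjusted list counts against unsorted cells are read against that number. Without unsorted library 2 the same limma fit gave 0 calls (1955 at an unadjusted p under 0.05) and without unsorted library 3 it gave 68 (2083 unadjusted), with 1 unsorted library left in each case. Leaving out a GFP-negative library gave 1002 to 1627 calls, with 1002 without GFP-negative library 1. Among 138 genes named by rule that passed, every one with a value kept its direction in these fits, and 0, 30, 99, 115 and 109 kept the call without unsorted library 2, unsorted library 3 and GFP-negative library 1, 2 and 3. When the high and low GFP sorts shared the estimate of spread, 1458 genes passed with all libraries, 330 without unsorted library 2 and 518 without unsorted library 3. In those fits the lone unsorted library is assumed to vary like the other groups. They hold only genes listed for every group, and 122 of the 138 named genes had a value. A list member absent from them is not a lost call. In bulk samples fewer cells of a type and less RNA per cell cannot be told apart.

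**Figure D1:**
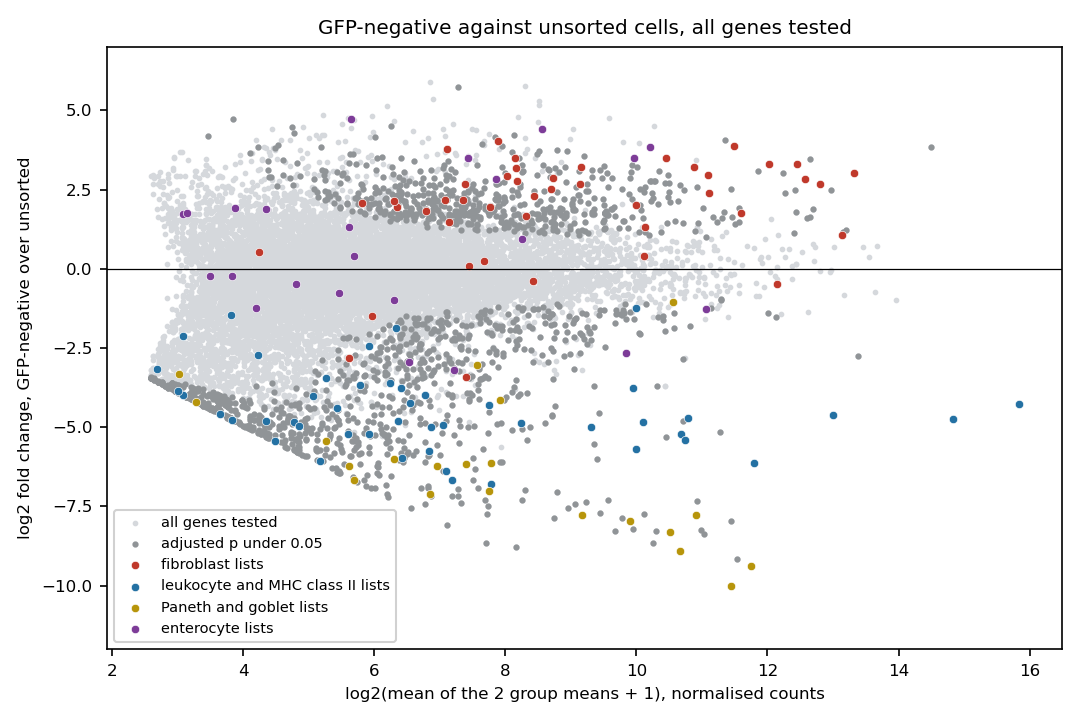
Log2 fold change of GFP-negative over unsorted cells (vertical axis) against the log2 of the mean of the group means plus 1, in normalised counts (horizontal axis), for the 13374 genes tested. Dark grey points passed limma at an adjusted p under 0.05. Members of the fibroblast lists (red) lie mostly above 0, leukocyte and major histocompatibility class II genes (blue) and Paneth and goblet genes (yellow) lie below 0, and enterocyte genes (purple) lie on both sides.

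Pi16, Ackr4 and Fabp6 are the markers attached to these cells, and the first 2 were higher in GFP-negative than in unsorted cells while Fabp6 was not. Pi16, a peptidase inhibitor that marks adventitial fibroblasts (chromosome 17, 29318877 to 29329413, plus strand, mm10), had 370, 673 and 517 normalised counts in GFP-negative libraries and 62 and 31 in unsorted libraries. Every GFP-negative library lay above both unsorted ones. Its log2 fold change was 3.49 (SE 0.42, limma adjusted p = 0.0042). Ackr4, an atypical receptor that scavenges chemokines such as CCL21 (chromosome 9, 104084157 to 104126933, minus strand, mm10), had 1292, 1767 and 1848 normalised counts in GFP-negative cells and 431 and 375 in unsorted cells. The groups again did not overlap, and the log2 fold change was 2.00 (SE 0.29, limma adjusted p = 0.0078). Without unsorted library 2 the log2 fold changes were 3.98 for Pi16 (limma adjusted p = 0.069) and 2.10 for Ackr4 (0.11), and without unsorted library 3 they were 3.01 (0.058) and 1.90 (0.094), so that the direction held and the calls did not. In the authors' deposited table Pi16 had a false discovery rate of 0.00809 and Ackr4 one of 0.308.

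Fabp6 encodes the ileal bile acid-binding protein of enterocytes (chromosome 11, 43596049 to 43601540, minus strand, mm10). It had 922, 1735 and 412 normalised counts in GFP-negative libraries against 5742 and 754 in unsorted libraries. The groups overlapped, because unsorted library 3 lay below GFP-negative libraries 1 and 2. The log2 fold change was -1.26 (SE 0.95) and did not pass (limma adjusted p = 0.43), and without unsorted library 2 its sign turned (0.21, adjusted p = 0.91). Every GFP-negative library lay above the GFP-positive sorts, where Fabp6 had 25, 31 and 0 normalised counts in high GFP cells and 5, 4 and 0 in low GFP cells. Its log2 fold change was 8.13 over low GFP cells (SE 0.75, limma adjusted p = 0.0021) and 6.53 over high GFP cells (SE 1.60, limma adjusted p = 0.26). The difference from low GFP cells passed in all 6 fits that left out 1 library, and the difference from high GFP cells in 1 of 6, the fit without high GFP library 3. Slc51a, a basolateral bile acid transporter subunit of the ileal list, had 27, 144 and 16 normalised counts in GFP-negative cells, was listed at 0 in all 6 GFP-sorted libraries and had 141 and 45 in unsorted cells. Its log2 fold change over unsorted cells was -0.98 (SE 0.92, limma adjusted p = 0.52).

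Col6a1, the gene whose regulatory sequence drives the Cre, had 2749, 1841 and 1109 normalised counts in GFP-negative cells, 1099, 1909 and 3379 in high GFP cells, 3562, 1949 and 3157 in low GFP cells, and 170 and 523 in unsorted cells. All GFP-negative libraries lay above both unsorted ones and within the range of the GFP-positive sorts. The log2 fold change over unsorted cells was 2.57 (SE 0.54, limma adjusted p = 0.022). That call was lost without unsorted library 2 (1.76, adjusted p = 0.24), without unsorted library 3 (3.38, 0.058), without GFP-negative library 1 (2.26, 0.070) and without GFP-negative library 2 (2.55, 0.052). Procr, the gene of the protein C receptor CD201, had 27, 0 and 40 normalised counts in GFP-negative cells and 239 and 220 in unsorted cells. The groups did not overlap, but the spread among GFP-negative libraries was wide and the difference did not pass (log2 fold change -4.46, SE 1.51, limma adjusted p = 0.11). The authors' DESeq test made the opposite calls for these 2 genes, with a false discovery rate of 0.36 for Col6a1 and 0.0185 for Procr.

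**Figure D2:**
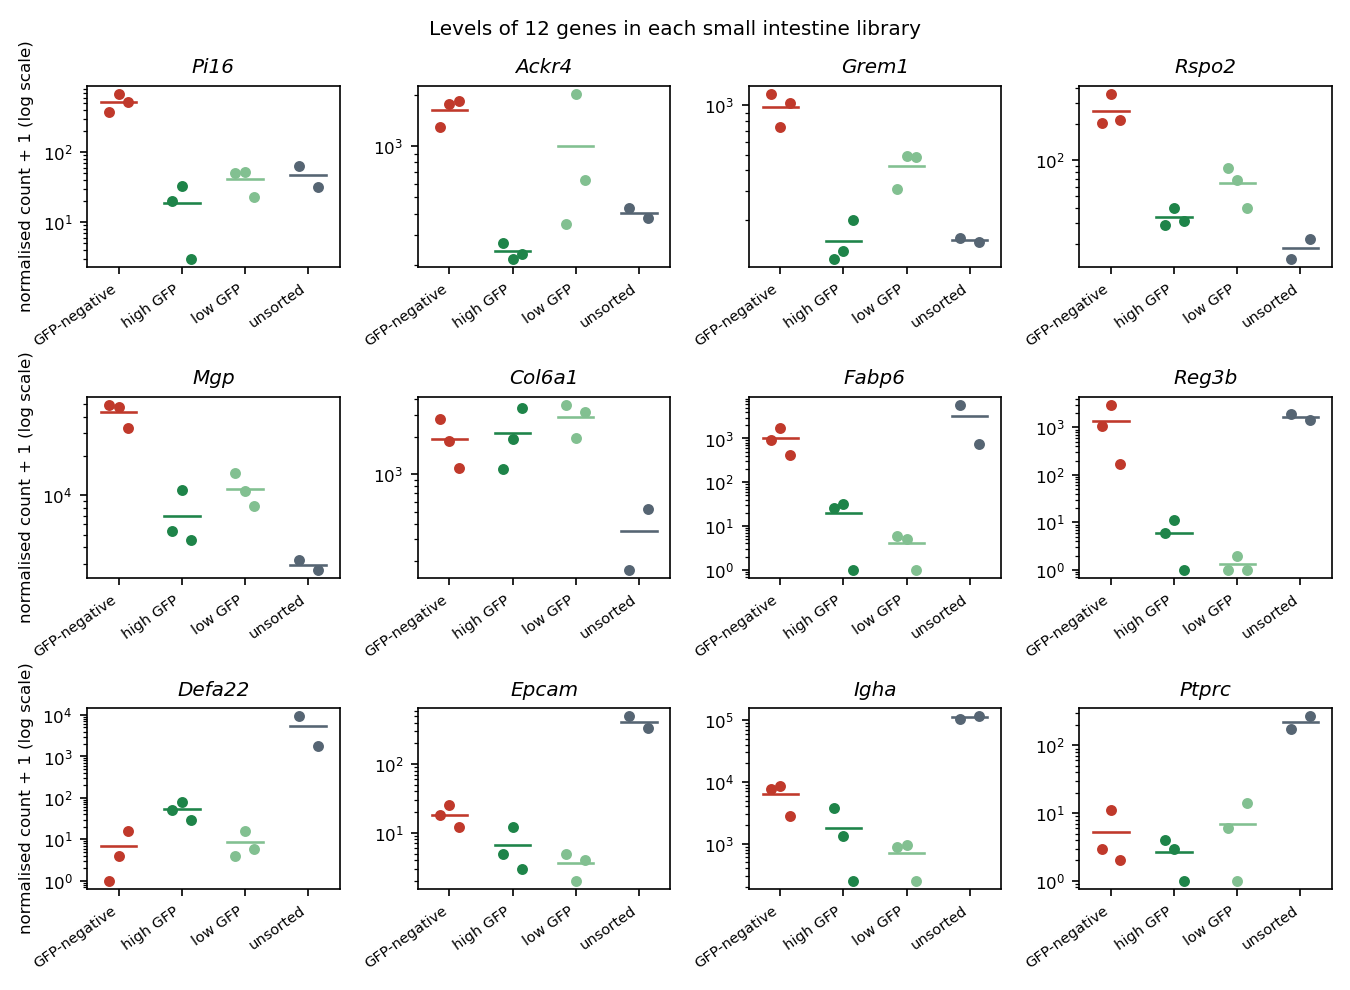
Normalised counts plus 1, on a log scale, of 12 genes in each small intestine library, in the order GFP-negative, high GFP, low GFP and unsorted. Points are libraries and bars are group means. The fibroblast genes of the top row stand higher in every GFP-negative library than in both unsorted libraries, Fabp6 and Reg3b are shared by GFP-negative and unsorted cells, and Defa22, Epcam, Igha and Ptprc stand higher in unsorted cells.

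Genes of adventitial fibroblasts were higher as a group in GFP-negative cells. Of 17 tested members of that list, 12 rose, 1 fell and 4 did not pass, with a median log2 fold change of 2.39, against 4.58% of all genes higher and 6.96% lower. Igfbp6, which binds insulin-like growth factors, had 397, 733 and 416 normalised counts in GFP-negative cells and 64 and 44 in unsorted cells. Mfap5, a glycoprotein of microfibrils, had 1116, 1033 and 939 against 91 and 135 in unsorted cells. Fbn1, the fibrillin that builds those microfibrils, had 1795, 3898 and 2059 against 188 and 243 in unsorted cells. For all of these genes each GFP-negative library exceeded both unsorted libraries. The log2 fold changes were 3.20 for Igfbp6 (SE 0.39), 3.20 for Mfap5 (SE 0.31) and 3.50 for Fbn1 (SE 0.38), with limma adjusted p of 0.0045, 0.0032 and 0.0037. Has1, a hyaluronan synthase, had the highest fold change of the list but varied widely, with 945, 270 and 136 normalised counts against 14 and 26 in unsorted cells (log2 fold change 4.02, SE 0.75, limma adjusted p = 0.015).

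The list was not uniform. Dpp4, a cell surface peptidase that adventitial fibroblasts share with the brush border of enterocytes, fell, with 19, 13 and 5 normalised counts in GFP-negative cells and 84 and 83 in unsorted cells (log2 fold change -2.83, SE 0.70, limma adjusted p = 0.038). Ly6c1, which endothelial cells also express, had 224, 179 and 139 normalised counts against 177 and 155, with overlapping groups and a log2 fold change of 0.10 (limma adjusted p = 0.88). Sema3c and Ackr3 had log2 fold changes of 2.13 and 1.95 and did not pass (limma adjusted p of 0.071 and 0.080). The summed level of the list was 28929, 29532 and 24997 normalised counts in GFP-negative libraries and 4771 and 5910 in unsorted ones. Without unsorted library 3 the count of members that rose was 4 and without unsorted library 2 it was 0, and with the sorted groups in the same fit it was 12 and 8.

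The markers of Cd81 trophocytes moved with them: 11 of 15 tested members rose, 0 fell and 4 did not pass, with a median log2 fold change of 2.16. Grem1, a secreted BMP antagonist, had 1168, 737 and 1027 normalised counts in GFP-negative cells and 154 and 145 in unsorted cells. Rspo2, which amplifies Wnt signalling in stem cells, had 204, 355 and 215 against 14 and 21. Cd34, a sialomucin of fibroblast and endothelial surfaces, had 2609, 4155 and 3416 against 418 and 303. No GFP-negative library overlapped an unsorted one for these genes. Their log2 fold changes were 2.68 for Grem1 (SE 0.31, limma adjusted p = 0.0040), 3.79 for Rspo2 (SE 0.43, 0.0037) and 3.22 for Cd34 (SE 0.32, 0.0032). Chodl, a lectin-like membrane protein, had 488, 461 and 417 normalised counts in GFP-negative cells and 87 and 39 in unsorted cells (2.94, SE 0.40, 0.0062).

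Cd81 itself, which gives those cells their name, did not pass. It had 283, 366 and 226 normalised counts in GFP-negative cells and 274 and 512 in unsorted cells, with overlapping groups and a log2 fold change of -0.39 (SE 0.38, limma adjusted p = 0.54). Cxcl12, a chemokine that retains leukocytes and endothelial cells near stroma, had 1197, 1228 and 1367 against 1007 and 905 and also did not pass (0.40, SE 0.27, limma adjusted p = 0.36). The number of trophocyte markers that rose was 0 without unsorted library 2 and 4 without unsorted library 3, and 7 in either case with the sorted groups in the fit.

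General fibroblast genes of the lamina propria followed the same direction, with 8 of 12 tested members higher, 0 lower and 4 not past the threshold (median log2 fold change 2.41). Lum, a proteoglycan that spaces collagen fibrils, had 5514, 6994 and 3711 normalised counts in GFP-negative cells and 298 and 427 in unsorted cells. Col14a1, a fibril-associated collagen, had 7870, 8570 and 6370 against 782 and 727. Fbln1, a fibulin of elastic fibres and basement membranes, had 9682, 9480 and 11254 against 1097 and 962. These values left a wide gap between the groups, and the log2 fold changes were 3.87 (SE 0.35, limma adjusted p = 0.0026), 3.32 (SE 0.27, 0.0022) and 3.30 (SE 0.26, 0.0022). Adamdec1, a metalloprotease typical of fibroblasts at the villus, had 11061, 11735 and 13411 normalised counts in GFP-negative cells, against 27181, 20146 and 32268 in high GFP, 41747, 56717 and 41692 in low GFP and 4161 and 7791 in unsorted cells. The GFP-negative libraries lay below every GFP-positive library and above the unsorted ones, and the log2 fold change over unsorted cells did not pass (1.08, SE 0.32, limma adjusted p = 0.068). With unsorted library 2 or 3 left out the count of members higher was 0 and 5, or 7 and 8 with the sorted groups in the fit.

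Telocyte genes lay on both sides. Of 13 tested members 2 rose, 0 fell and 11 did not pass, and the median log2 fold change was -2.14. At an unadjusted p under 0.05, 3 were higher and 5 lower, and 4 fell with a pseudocount of 10. The members that rose were Bmp4, a BMP ligand (1269, 1166 and 704 normalised counts in GFP-negative cells and 114 and 217 in unsorted cells, log2 fold change 2.68, SE 0.40, limma adjusted p = 0.0083), and Cxcl14, a chemokine (308, 107 and 171 against 41 and 49, 1.97, SE 0.49, 0.038). Pdgfra, the receptor that telocytes express strongly and other fibroblasts more weakly, had 719, 461 and 514 normalised counts in GFP-negative cells and 215 and 275 in unsorted cells. The groups did not overlap, yet the difference missed the threshold (1.19, SE 0.32, limma adjusted p = 0.052). With the sorted groups in the same fit 3 telocyte genes rose and 4 fell, or 1 and 2 rose and 0 fell without unsorted library 2 and 3. In the fit of these 2 groups alone 1 rose without GFP-negative library 1 or 3.

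**Figure D3:**
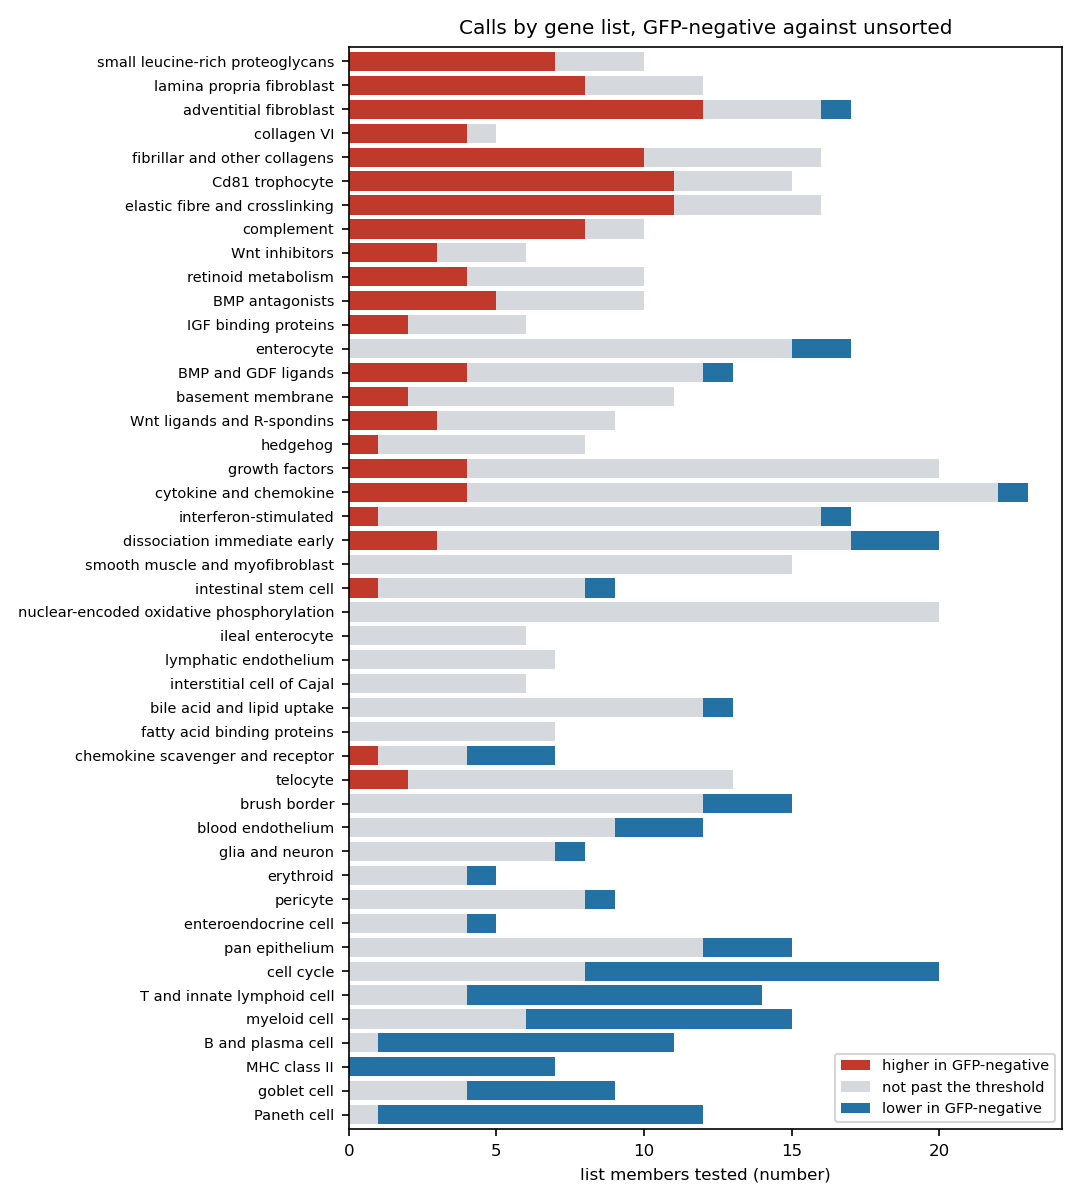
Number of tested members of each gene list that were higher, not past the threshold or lower in GFP-negative than in unsorted cells (limma adjusted p under 0.05), ordered by median log2 fold change, for lists with 5 or more tested members. Fibroblast, matrix and complement lists at the top hold mainly higher genes, and Paneth, goblet, leukocyte and cell cycle lists at the bottom hold mainly lower ones.

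Matrix genes were higher than in unsorted cells on several lists, and their medians over the GFP-positive sorts are given below. Of 16 tested collagens outside type VI, 10 rose, 0 fell and 6 did not pass. Col1a1, a chain of type I collagen, had 12786, 14206 and 8504 normalised counts in GFP-negative cells and 922 and 1188 in unsorted cells. Col1a2, the other chain, had 11402, 7903 and 6592 against 1107 and 975, and Col3a1 had 7748, 7052 and 4963 against 564 and 1046. The lowest GFP-negative value was above the highest unsorted value for each. Their log2 fold changes were 3.46 (SE 0.31, limma adjusted p = 0.0026), 3.02 (SE 0.31, 0.0034) and 3.07 (SE 0.36, 0.0037). Among the collagen VI genes 4 of 5 tested rose, and besides Col6a1 these were Col6a2 (2327, 2244 and 1517 against 321 and 441, log2 fold change 2.40, limma adjusted p = 0.0059), Col6a3 (5998, 8621 and 10215 against 1659 and 1451, 2.38, 0.0055) and Col6a5 (112, 91 and 132 against 41 and 35, 1.52, 0.046). Col6a4 had 25, 21 and 58 against 22 and 30 and overlapping groups. Without unsorted library 2 and without unsorted library 3, 0 and 6 of the other collagens rose (8 and 11 with the sorted groups in the fit), and 0 and 0 of the collagen VI genes (2 and 3). Collagen VI genes higher numbered 2 without GFP-negative library 1 or 2.

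Elastic fibre and crosslinking genes gave 11 increases and 0 decreases among 16 tested. Loxl1, an oxidase that crosslinks elastin, had 1477, 2183 and 1507 normalised counts in GFP-negative cells and 204 and 198 in unsorted cells (log2 fold change 3.07, SE 0.30, limma adjusted p = 0.0032). Lox and Ltbp4, by contrast, had overlapping groups and log2 fold changes of 0.98 and 0.61 (limma adjusted p of 0.26 and 0.36). Small leucine-rich proteoglycans and procollagen enhancers rose in 7 of 10 cases. Dcn, decorin, had 20627, 18169 and 15892 normalised counts against 1661 and 2956 (3.03, SE 0.32, 0.0034), and Pcolce, which speeds procollagen cleavage, had 1076, 654 and 366 against 57 and 74 (3.27, SE 0.46, 0.0072). All GFP-negative libraries were above the unsorted ones for these 3 genes. Basement membrane genes moved less: 2 of 11 rose, Nid1 (330, 253 and 252 against 50 and 69) and Lamc1 (657, 553 and 484 against 92 and 199), with log2 fold changes of 2.21 and 2.04 (limma adjusted p of 0.0093 and 0.017), and Lamb1 had 1857, 1256 and 3436 against 1995 and 1843. Basement membrane genes higher numbered 1 without GFP-negative library 1. The counts of elastic fibre genes and proteoglycan genes higher were 0 and 0 without unsorted library 2, 5 and 3 without unsorted library 3, and with the sorted groups in the fit 8 and 4, and 9 and 7.

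Several of these genes were also among the largest changes. The 15 largest increases had log2 fold changes between 3.79 (Rspo2) and 5.74 (Inmt). Inmt, a methyltransferase, had 274, 565 and 74 normalised counts in GFP-negative cells and 1 and 8 in unsorted cells, a gap that held in every library although the GFP-negative ones differed widely among themselves (SE 0.94, limma adjusted p = 0.010). Cpxm1, a secreted carboxypeptidase-like protein, was far steadier, with 386, 469 and 441 against 23 and 23 (4.17, SE 0.33, 0.0022). Prss23, a serine protease, had 4949, 7500 and 2404 against 199 and 357 (4.06, SE 0.49, 0.0042). Mgp, the matrix Gla protein that inhibits calcification, had 48952, 47762 and 32683 normalised counts in GFP-negative cells and 3187 and 2695 in unsorted cells (3.86, SE 0.29, 0.0022). The others were Ptgfr, Mrap, Ly6f, Adh1, Scara5, Has1, Fkbp14, Lum, Ccdc80 and Cpz. Of the 10 genes with the highest levels in GFP-negative cells, Gsn, the actin-severing protein gelsolin, had 12967, 16442 and 11680 normalised counts against 2474 and 2372 in unsorted cells (2.48, 0.0034), and Grn, the growth factor progranulin, had 9011, 14846 and 14063 against 5808 and 5335 (1.15, 0.045). S100a6, a calcium-binding protein of the same group, had 11969, 12672 and 17202 against 7415 and 9739 and did not pass (0.70, 0.16).

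Immune effector genes of fibroblasts rose over unsorted cells as well, while no complement gene passed over either GFP-positive sort (given below). In the complement list 8 of 10 tested genes were higher and 0 lower (3 higher in limma with neither trend nor robust variance). C3, the central component, had 11801, 12175 and 12710 normalised counts in GFP-negative cells and 2650 and 1387 in unsorted cells, and C4b had 7313, 9777 and 11038 against 1492 and 1790. The GFP-negative libraries were close to each other and far from the unsorted ones, with log2 fold changes of 2.67 (SE 0.32, limma adjusted p = 0.0042) and 2.50 (SE 0.29, 0.0037). Among 23 cytokines and chemokines 4 rose and 1 fell. Il6 had 413, 219 and 124 normalised counts against 25 and 33 (2.92, SE 0.53, 0.014), Il33, an alarmin, had 353, 213 and 239 against 47 and 69 (2.18, SE 0.38, 0.013), and Tnfsf13b, the B cell survival factor BAFF, had 145, 320 and 155 against 32 and 28 (2.65, SE 0.45, 0.012). Cxcl14, given above, was the other one. Ccl8 fell, with 19, 0 and 15 against 240 and 258 (-5.19, SE 1.22, 0.032). Complement genes higher numbered 0 without unsorted library 2 and 2 without unsorted library 3, or 4 and 7 with the sorted groups in the fit, and 4 without GFP-negative library 1. Cytokine genes higher and lower numbered 3 and 0 without GFP-negative library 1, 4 and 3 without library 2, and 3 and 0 without library 3.

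Signals of the stem cell niche showed increases on several sides. BMP antagonists were higher in 5 of 10 tested cases and lower in 0: beside Grem1 these included Fstl1 (3071, 2327 and 1699 normalised counts against 358 and 649, log2 fold change 2.25, limma adjusted p = 0.011) and Twsg1 (305, 579 and 267 against 80 and 79, 2.17, 0.015). Of 13 BMP and related ligands 4 rose and 1 fell. Beside Bmp4 the ligands that rose were Gdf10 (75, 198 and 85 against 24 and 13, 2.55, 0.028), Tgfb2 (482, 696 and 559 against 162 and 208, 1.64, 0.017) and Tgfb3 (227, 128 and 194 against 32 and 28, 2.53, 0.0098), and Inhba fell (0, 2 and 2 against 20 and 79, -4.30, 0.045). None of these genes had overlapping groups. Without any 1 of the GFP-negative libraries, 3 BMP antagonists rose.

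Of 9 Wnt ligands and R-spondins 3 rose: Rspo2, Rspo3 (73, 122 and 72 normalised counts in GFP-negative cells and 14 and 28 in unsorted cells, log2 fold change 2.07, SE 0.52, limma adjusted p = 0.041) and Wnt2b (204, 166 and 289 against 33 and 67, 2.16, SE 0.44, 0.021). Wnt5a, a ligand typical of telocytes, had 12, 34 and 49 against 45 and 35 with overlapping groups (-0.52, 0.65). Secreted Wnt inhibitors rose in 3 of 6 cases. Sfrp1 had 4533, 3549 and 3454 normalised counts against 338 and 715 (2.95, 0.0047), Dkk2 had 239, 210 and 211 against 36 and 31 (2.68, 0.0055), and the membrane inhibitor Apcdd1 had 488, 657 and 819 against 118 and 113 (2.46, 0.0060). Frzb was lower in each GFP-negative library, with 108, 70 and 231 against 278 and 291, but did not pass (-1.23, 0.15). R-spondins and Wnt inhibitors were thus higher in the same libraries. Without unsorted library 2 and 3 the antagonists, Wnt ligands and Wnt inhibitors higher numbered 0, 0 and 0, and 0, 1 and 1, or 3, 1 and 3, and 4, 2 and 3 with the sorted groups in the fit. Wnt ligands and R-spondins higher numbered 1 without GFP-negative library 1 or 3.

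Growth factors rose in 4 of 20 tested cases, among them Igf1 (1155, 1134 and 952 normalised counts in GFP-negative cells and 234 and 219 in unsorted cells, log2 fold change 2.24, SE 0.28, limma adjusted p = 0.0047), Fgf2 and the lymphatic growth factor Vegfd. Without GFP-negative library 1, 2 and 3 the growth factors higher numbered 1, 3 and 1. Igfbp4 (4141, 3803 and 2000 against 799 and 870, 1.92, 0.016) and Igfbp6 were the 2 of 6 IGF binding proteins that rose. Of the enzymes that make retinoic acid, Aldh1a3 (415, 653 and 995 against 123 and 159, 2.20, SE 0.41, 0.015) and Aldh1a2 (152, 139 and 121 against 27 and 60, 1.74, SE 0.45, 0.043) rose. Over high and low GFP cells the median log2 fold changes were -0.632 and -1.35 for IGF binding proteins. For retinoid metabolism genes they were -0.287 and -0.428. The hedgehog pathway target Gli1 had 89, 107 and 187 against 55 and 74 and did not pass (0.92, 0.22). Among chemokine receptors and scavengers Ackr4 rose and Cxcr4 (46, 8 and 13 against 329 and 316), Ccr2 (0, 0 and 5 against 51 and 66) and Ccrl2 (93, 16 and 26 against 224 and 329) fell, with log2 fold changes of -4.16, -5.02 and -2.96 (limma adjusted p of 0.011, 0.031 and 0.032).

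Of contractile, perivascular and endothelial genes few passed the test. Of 15 tested smooth muscle and myofibroblast genes 0 passed in either direction by limma, with 4 lower and 0 higher at an unadjusted p under 0.05. Of all 13374 genes tested, 3701 were under that unadjusted threshold in either direction, so a few such genes in a list are no result by themselves. Without GFP-negative library 1, and in 3 fits with the sorted groups, 1 of them was lower. Acta2, smooth muscle actin, had 1473, 349 and 309 normalised counts in GFP-negative cells and 421 and 991 in unsorted cells. The pericyte list had a median log2 fold change of -2.75, with 4 of 9 genes lower at an unadjusted p under 0.05. Of these 9 genes 1 fell, Mcam (12, 67 and 41 against 758 and 352, log2 fold change -3.96, SE 0.70, limma adjusted p = 0.013), which endothelial cells express too, and Rgs5 overlapped (2024, 1513 and 2269 against 1877 and 2201). The blood endothelial list had a median log2 fold change of -2.25, with 8 of 12 genes lower at an unadjusted p under 0.05. Those that fell numbered 3 of 12: Flt1 (73, 56 and 17 against 720 and 322, -3.51, 0.015), Vwf (0, 0 and 1 against 29 and 20, -4.32, 0.029) and Plvap (316, 56 and 77 against 855 and 533, -2.59, 0.047). The summed endothelial list was 1877, 538 and 269 normalised counts in GFP-negative libraries and 3406 and 2635 in unsorted ones, so that GFP-negative library 1 held far more of it than library 3. Blood endothelial genes lower numbered 7, 1 and 2 without GFP-negative library 1, 2 and 3. Of the 7 lymphatic genes 0 passed by limma (1 higher at an unadjusted p under 0.05), and their sum, 2631, 1194 and 1464 against 953 and 1395, overlapped. Of 6 genes of interstitial cells of Cajal, 2 mesothelial genes and 1 mast cell gene 0 passed, with 1, 1 and 0 lower at an unadjusted p under 0.05. Of 8 glial and neuronal genes 1 fell, the glial gene S100b (0, 6 and 3 against 79 and 85, -4.77, SE 1.09, 0.030), and of 5 erythroid genes 1 fell, the globin Hba-a2 (214, 245 and 42 against 770 and 928, -2.69, SE 0.70, 0.047). Erythroid genes lower numbered 0, 3 and 3 without GFP-negative library 1, 2 and 3.

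Leukocyte transcripts were lower in GFP-negative cells than in the unsorted preparation. Of 11 tested B and plasma cell genes 10 fell, of 14 T and innate lymphoid genes 10, of 15 myeloid genes 9 and of 7 MHC class II genes 7, against 6.96% of all genes, and 0 members of these lists rose. Igha, the heavy chain of secreted IgA, chosen after its values were seen, had 7627, 8677 and 2758 normalised counts in GFP-negative cells and 105529 and 115172 in unsorted cells. C1qa, a complement subunit of macrophages, had 66, 138 and 68 against 3689 and 2714. H2-Aa, a class II chain of antigen-presenting cells, had 58, 211 and 63 against 4227 and 9803, and Ptprc, the pan-leukocyte antigen CD45, had 2, 10 and 1 against 175 and 269. All these genes were lower in each GFP-negative library than in either unsorted one. The log2 fold changes were -4.28 for Igha (SE 0.47), -5.20 for C1qa (SE 0.40), -6.12 for H2-Aa (SE 0.60) and -5.75 for Ptprc (SE 0.89), with limma adjusted p of 0.0037, 0.0022, 0.0032 and 0.0089.

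Immunoglobulin genes with Jchain made up 0.527, 0.513 and 0.169% of all normalised counts in GFP-negative libraries and 7.16 and 8.25% in unsorted ones. Of 9 immunoglobulin genes tested 6 fell. Some leukocyte genes were listed at 0 in all 3 GFP-negative libraries, where 3 reads per library were taken as the limit of detection, averaged over the group. On that scale Adgre1, the macrophage marker F4/80, was at least 16.5-fold lower (0, 0 and 0 against 47 and 93) and Ms4a1, the B cell antigen CD20, at least 10.1-fold lower (0, 0 and 0 against 34 and 52). Some transcripts remained: Xbp1, which secretory cells of many kinds express, had 839, 446 and 542 normalised counts against 1095 and 1754 and did not pass (log2 fold change -1.24, limma adjusted p = 0.068). T and innate lymphoid genes lower numbered 6 without GFP-negative library 1. The fit with the sorted groups holds only genes listed for every group. The high GFP data list 7 of the 14 T and innate lymphoid genes and 7 of the 11 B and plasma cell genes, so absent genes are not lost calls. Without unsorted library 2 none of the T, B, myeloid or class II genes passed, and without unsorted library 3 the counts were 0, 0, 1 and 2. With the sorted groups in the fit they were 0, 0, 3 and 5 without unsorted library 2 and 0, 0, 2 and 5 without unsorted library 3.

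Genes of Paneth cells, the antimicrobial cells of the crypt base, were lower in GFP-negative cells. Of 12 tested Paneth genes 11 fell and 0 rose, with a median log2 fold change of -7.43. The alpha-defensins they secrete fell without exception among the 19 Defa genes tested, and their sum was 41, 334 and 124 normalised counts in GFP-negative libraries and 87258 and 19537 in unsorted ones. Unsorted library 2 held far more of it than library 3. Defa22 had 0, 3 and 15 normalised counts in GFP-negative cells, 50, 80 and 29 in high GFP cells, 3, 15 and 5 in low GFP cells, and 9339 and 1799 in unsorted cells (log2 fold change over unsorted -10.00, SE 1.19, limma adjusted p = 0.0059). The defensin genes are near-identical copies, so the split of reads among them is uncertain and the family sum is the safer value. Itln1, an intelectin, had 0, 10 and 7 against 5710 and 791 (-8.90, SE 1.18, 0.0070), and Mptx2, a mucosal pentraxin, was at least 134-fold lower (0, 0 and 0 against 928 and 209).

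Windows around the start of 2 defensin genes are shown as background. Paneth genes are known targets of Wnt signalling through TCF proteins, whose core site is ATCAAAG. The windows are from RefSeq on GRCm38.p6, for Defa22 chr8:21162027-21162326 and for Defa37 chr8:21565136-21565435, both on the plus strand, 5′ to 3′, with ATCAAAG and TATAAA in capitals.
Defa22: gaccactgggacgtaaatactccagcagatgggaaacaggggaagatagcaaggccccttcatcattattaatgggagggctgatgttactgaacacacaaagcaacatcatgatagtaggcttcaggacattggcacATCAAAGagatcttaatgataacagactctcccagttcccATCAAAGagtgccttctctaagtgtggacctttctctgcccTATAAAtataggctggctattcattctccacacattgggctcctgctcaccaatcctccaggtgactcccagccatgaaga
Defa37: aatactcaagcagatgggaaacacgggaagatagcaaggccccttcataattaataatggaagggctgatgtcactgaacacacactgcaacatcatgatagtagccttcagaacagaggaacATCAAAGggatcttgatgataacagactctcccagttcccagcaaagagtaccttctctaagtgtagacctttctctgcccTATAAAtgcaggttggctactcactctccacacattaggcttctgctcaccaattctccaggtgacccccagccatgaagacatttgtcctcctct
Searched on both strands, ATCAAAG was present in all 11 Defa windows available, in 8 of them at least 2 times, against 3.73% of 32851 windows. TATAAA was present in all 11 as well, against 13.6%. The window of Defa21 is identical to that of Defa22 over its 300 bases, and such copies are not independent instances of a motif. Defa37, with 1 match in place of 2, had 2, 19 and 4 normalised counts in GFP-negative cells and 3943 and 1066 in unsorted cells (log2 fold change -8.26, SE 0.86, limma adjusted p = 0.0034). The part of these sites in the difference from unsorted cells was not tested.

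Reg3b, a secreted lectin that Paneth cells and enterocytes make, did not follow the Paneth list. It had 1045, 2921 and 165 normalised counts in GFP-negative cells, 5, 10 and 0 in high GFP cells, 0, 1 and 0 in low GFP cells, and 1887 and 1413 in unsorted cells. Its GFP-negative and unsorted values overlapped (log2 fold change -1.04, SE 1.16, limma adjusted p = 0.60), while over low GFP cells it was higher (9.31, SE 0.93, 0.0028), a call lost without low GFP library 1 or 3. Goblet cell genes fell in 5 of 9 cases and rose in 0. Clca1 had 0, 24 and 0 normalised counts against 613 and 229 (-7.01, SE 1.41, 0.020), Spink4 had 0, 13 and 1 against 324 and 158 (-6.23, SE 1.17, 0.016), and Agr2, a secretory chaperone, was at least 23.8-fold lower (0, 0 and 0 against 113 and 89). What goblet signal remained lay in GFP-negative library 2, where the summed list was 442 normalised counts against 27 and 18 in libraries 1 and 3 and 5605 and 2117 in the unsorted ones. Paneth genes lower numbered 0 without unsorted library 2 and 3 without unsorted library 3 (6 and 6 with the sorted groups in the fit), and goblet genes 0 and 0 (0 and 0). Goblet genes lower numbered 2, 8 and 2 without GFP-negative library 1, 2 and 3. The fit with the sorted groups holds only genes listed for every group, and the high GFP data list 4 of the 10 goblet and 9 of the 12 Paneth genes.

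Pan-epithelial genes had a median log2 fold change of -3.48, with 10 of 15 lower at an unadjusted p under 0.05 and 12 of 15 lower with no overlap. Past the threshold 3 fell and 0 rose: Epcam, the adhesion molecule used to sort epithelium, had 17, 24 and 11 normalised counts in GFP-negative cells and 496 and 330 in unsorted cells (log2 fold change -4.53, SE 0.49, limma adjusted p = 0.0034), Cdh1 had 112, 237 and 24 against 1462 and 896 (-3.71, 0.036) and Cldn7 had 15, 93 and 12 against 367 and 175 (-3.24, 0.044). Enterocyte genes had a median log2 fold change of 1.33, with 11 of 17 positive, but 0 rose past the threshold. Of these 17 genes 2 fell, Dgat1 (214, 232 and 310 against 1306 and 1874, -2.65, SE 0.32, 0.0042) and the glucose transporter Slc5a1 (13, 27 and 20 against 217 and 108, -2.93, SE 0.55, 0.016). Apoa1, an apolipoprotein of liver and enterocytes, had 1284, 5505 and 84 normalised counts in GFP-negative libraries, 8383, 1037 and 9200 in high GFP libraries, 8799, 2551 and 5904 in low GFP libraries, and 120 and 27 in unsorted libraries, and its log2 fold change over unsorted cells did not pass (3.86, SE 1.83, limma adjusted p = 0.25). Alb, the liver albumin gene, chosen after its values were seen, was at 1500, 5660 and 10 in those GFP-negative libraries and at 129 and 2 in the unsorted ones, and its part in the enterocyte values was not tested. Without GFP-negative library 3, 6 enterocyte genes rose, and pan-epithelial genes lower numbered 1 and 9 without GFP-negative library 1 and 2. Of 5 enteroendocrine genes 1 fell, the hormone gene Sct, which was at least 4.24-fold lower (0, 0 and 0 against 25 and 11). Of 9 intestinal stem cell genes the receptor Ephb2 rose (199, 174 and 178 against 90 and 58, 1.33, SE 0.36, 0.049) and Olfm4 fell, at least 3.06-fold (0, 0 and 0 against 20 and 6). Both calls lay just inside the threshold: that of Olfm4 was kept in 2 of 11 alternatives that gave a value and that of Ephb2 in 5 of 19.

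Of 6 ileal enterocyte genes and 7 fatty acid binding protein genes 0 passed by limma, with 0 and 3 lower and 0 and 0 higher at an unadjusted p under 0.05, and 1 of 13 bile acid and lipid uptake genes did, Dgat1. For these 3 lists the counts over the settings tried were between 0 and 1 in either direction. Besides Fabp6 the fatty acid binding proteins were Fabp1 (264, 1054 and 9 normalised counts in GFP-negative cells against 31 and 11), Fabp2 (56, 54 and 5 against 64 and 31), Fabp3 (40, 0 and 0 against 3 and 0), Fabp4, an endothelial and fat cell form (64, 42 and 3 against 482 and 117), Fabp5 (6, 0 and 0 against 21 and 35) and Fabp7, a glial form (0, 0 and 1 against 21 and 6). For Fabp1 and Fabp2 the lowest GFP-negative value was that of library 3. Of 15 brush border genes 3 fell, Cgn, Pls1 and Dpp4, with log2 fold changes of -3.56, -3.31 and -2.83 (limma adjusted p of 0.022, 0.047 and 0.038). Brush border genes lower numbered 1 and 6 without GFP-negative library 1 and 2.

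Cell cycle genes were lower in GFP-negative cells in 12 of 20 tested cases and higher in 0. Top2a, a topoisomerase of dividing cells, had 0, 6 and 6 normalised counts against 201 and 187 in unsorted cells, and Plk1, a mitotic kinase, had 0, 0 and 3 against 122 and 178. Both were close to absent from every GFP-negative library, with log2 fold changes of -5.74 (SE 1.01, limma adjusted p = 0.013) and -6.55 (SE 1.07, 0.010). Pcna, which also serves DNA repair, overlapped (197, 154 and 82 against 181 and 262, -0.68, 0.35). Of 20 nuclear-encoded oxidative phosphorylation genes 0 passed by limma (1 higher and 4 lower at an unadjusted p under 0.05), and of 85 cytosolic ribosomal protein genes 1 rose and 4 fell, with a median of -0.17. Interferon-stimulated genes gave 1 increase, Iigp1 (831, 425 and 389 against 149 and 203, 1.56, 0.043), and 1 decrease, Psmb8 (582, 374 and 408 against 1140 and 1251, -1.42, 0.025), among 17, and without GFP-negative library 1, 2 and 3 the counts higher were 0, 0 and 0 and lower 1, 0 and 0. Over all genes tested 4.58% were higher and 6.96% lower. The ribosomal and interferon counts are not read as results about those lists. Without unsorted library 2 or 3 the cell cycle genes lower numbered 0 and 0, or 0 and 2 with the sorted groups in the fit.

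Genes induced by tissue dissociation summed to 75599, 64141 and 55185 normalised counts in GFP-negative libraries, 14896 to 26535 in high GFP, 22509 to 30670 in low GFP and 62279 and 58152 in unsorted libraries. Of 20 tested, 3 rose, 3 fell and 14 did not pass against unsorted cells. Junb, an immediate early transcription factor, had 15196, 18296 and 14816 normalised counts in GFP-negative cells, 4284, 4137 and 1720 in high GFP cells, 3157, 2593 and 1869 in low GFP cells, and 8868 and 10874 in unsorted cells. The GFP-negative libraries lay above all the others. Over unsorted cells Junb did not pass (0.71, SE 0.26, limma adjusted p = 0.12). Egr1 (15373, 13766 and 10557 against 5395 and 5741, 1.23, 0.027), Jund and Klf4 rose, and the heat-shock genes Hspa8 (3355, 1751 and 2051 against 7501 and 5731, -1.52, 0.029) and Hsph1 fell with Klf6. Without GFP-negative library 1, 2 and 3 the genes higher numbered 1, 1 and 2 and those lower 3, 2 and 1, and without unsorted library 2 or 3 none passed.

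The GFP-positive sorts of the same tissue gave another reference for these genes. Both comparisons use the same 3 GFP-negative libraries as above. Against high GFP cells 111 of 12412 genes passed (0.894%), 62 higher (0.5%) and 49 lower (0.395%), with 1311 genes at an unadjusted p under 0.05. The balance of directions was not stable: 55.9% of these calls were higher, against 46.3% with equal totals, 37.9, 36.6 and 34.6% without GFP-negative library 1, 2 and 3, and 83.3% without high GFP library 3. Against low GFP cells 84 of 12445 passed (0.675%), 70 higher (0.562%) and 14 lower (0.112%), with 2100 unadjusted. Of these calls 83.3% were higher, against 68.8, 38.9 and 57.1% without GFP-negative library 1, 2 and 3. Scaling the libraries to equal totals moved the median log2 fold change of all genes over high GFP cells from -0.06 to -0.17, and changes over high GFP cells are read against these. Groups did not overlap for 8.28% of genes higher and 7.9% lower over high GFP cells, and for 12.5% higher and 10.7% lower over low GFP cells. Leaving out 1 library gave 24 to 104 calls against high GFP, with 24 without high GFP library 3, 59 without high GFP library 1 and 58 without GFP-negative library 1. Against low GFP it gave 6 to 76, with 6 without low GFP library 1 or 3, and 16, 36 and 42 without GFP-negative library 1, 2 or 3.

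Pi16 had 19, 32 and 2 normalised counts in high GFP cells and 49, 52 and 22 in low GFP cells, all far below the GFP-negative libraries (log2 fold changes 5.33, SE 0.82, limma adjusted p = 0.027, and 3.68, SE 0.41, 0.0024). Igfbp6 had 48, 101 and 46 and 65, 110 and 59 (3.01, 0.0049, and 2.71, 0.010). Chodl had 4, 26 and 24 and 25, 46 and 26 (4.92, 0.0025, and 3.83, 0.0021). Each of these genes separated the GFP-negative libraries from both GFP-positive sorts with no overlap. Rspo2 had 28, 39 and 30 in high GFP and 85, 67 and 39 in low GFP cells (2.93, 0.0048, and 2.03, 0.044). Mgp had 5352, 11068 and 4541 and 14859, 10752 and 8270 (2.72, 0.0057, and 1.95, 0.017). Cpxm1 had 26, 63 and 28 and 31, 57 and 27 (3.55, 0.0019, and 3.53, 0.0021), and Prss23 had 181, 465 and 267 and 657, 536 and 489 (3.98, 0.0023, and 3.00, 0.0070). For Ackr4 the high GFP sort was lower (269, 216 and 232; 2.76, SE 0.30, limma adjusted p = 0.0016) but the low GFP sort was not resolved, since low GFP library 2 held 2013 normalised counts against 349 and 629 in the others (1.08, SE 0.59, 0.39). Grem1 had 114, 127 and 197 in high GFP and 307, 491 and 482 in low GFP cells (2.75, 0.0025, and 1.20, 0.094), so that its low GFP libraries lay between those of the other sorts. In the 6 fits that left out 1 library, Igfbp6, Chodl, Rspo2, Mgp, Cpxm1, Prss23, Ackr4 and Grem1 passed over high GFP cells each time and Pi16 in 3, being lost without GFP-negative library 1 or 2 or high GFP library 1. Over low GFP cells Pi16, Chodl and Cpxm1 passed in all 6, Igfbp6 in 4 (lost without low GFP library 1 or 3), Prss23 in 3 (lost without those or GFP-negative library 1), Mgp in 2 (lost without those or GFP-negative library 1 or 2) and Rspo2 in 0. Ackr4 passed over low GFP cells without low GFP library 2. Mfap5 passed in 1 of 6 over each sort, and Gpc3 and Col8a1 passed in 6 over high GFP and 1 of 6 over low GFP cells. Of the adventitial list 3 of 17 genes rose over high GFP cells and 4 of 17 over low GFP cells. Of the trophocyte list 5 of 16 and 2 of 15 rose, against 0.5% and 0.562% of all genes. Over high GFP cells 1 trophocyte gene fell (0.395% of all genes did), and 0 fell without high GFP library 3. In the fits with 1 library left out the adventitial genes that rose ranged from 1 to 4 in both comparisons. The trophocyte genes that rose ranged from 4 to 6 over high GFP and from 1 to 3 over low GFP cells.

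**Figure D4:**
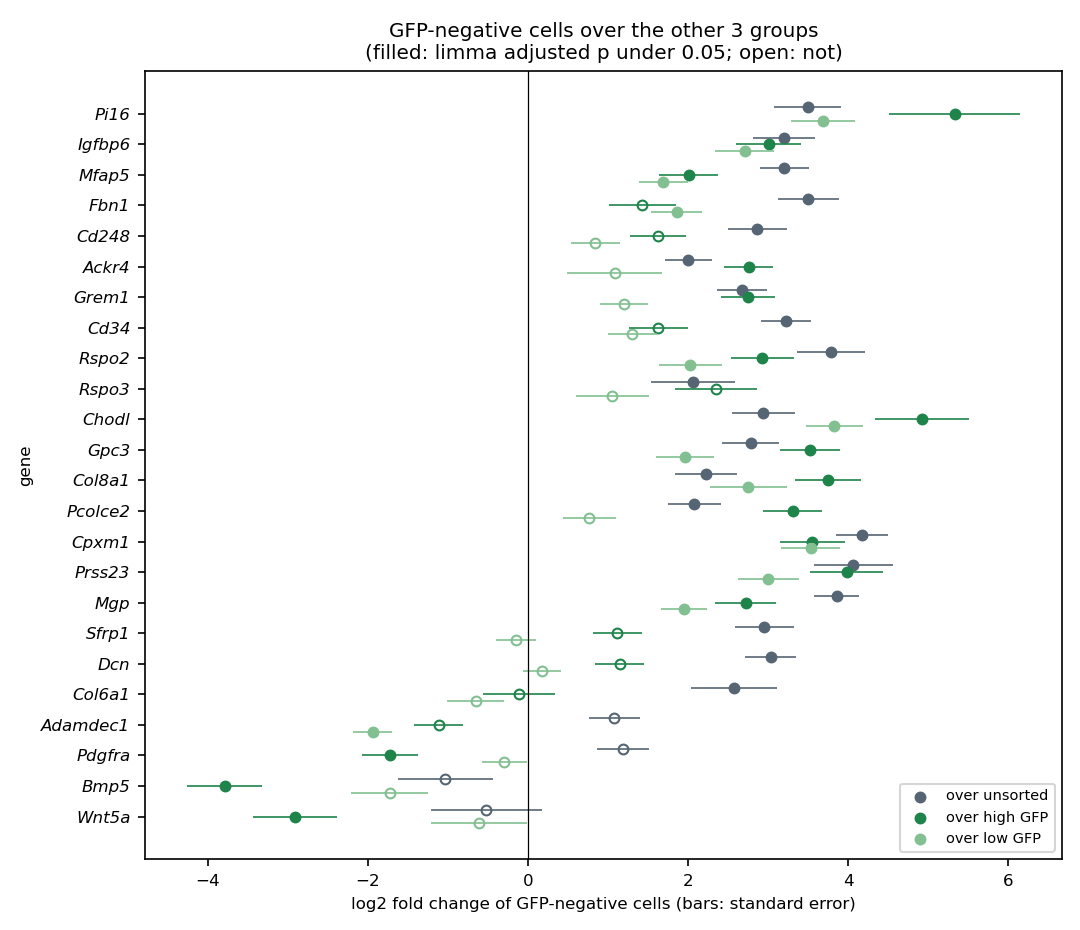
Log2 fold change of GFP-negative cells over unsorted (grey), high GFP (dark green) and low GFP cells (light green) for 24 genes, with standard errors as bars. Filled points passed limma at an adjusted p under 0.05 and open points did not. The comparisons share the 3 GFP-negative libraries. Pi16, Igfbp6, Mfap5, Chodl, Gpc3, Col8a1, Rspo2, Cpxm1, Prss23 and Mgp are filled in all comparisons, Dcn and Sfrp1 over unsorted cells alone, and Bmp5 and Wnt5a lie far left over high GFP cells.

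Genes that rose against the unsorted preparation did not all rise against the sorts. Complement genes passed in 0 of 10 cases over each sort. Their median log2 fold changes were 0.542 over high GFP and -0.298 over low GFP cells. At an unadjusted p under 0.05, 3 were higher over high GFP cells, and 2 were higher and 2 lower over low GFP cells. In that order the medians were 0.058 and 0.207 for collagens outside type VI and -0.606 and -0.332 for collagen VI genes. They were 0.213 and 0.288 for elastic fibre genes and 0.745 and 0.464 for proteoglycans. Sfrp1 had 4533, 3549 and 3454 normalised counts in GFP-negative cells and 4458, 3639 and 4670 in low GFP cells (log2 fold change -0.15, SE 0.25, limma adjusted p = 0.77), and Dcn had 16136, 15004 and 17156 in low GFP cells (0.17, SE 0.24, 0.71). Telocyte genes fell against high GFP cells in 8 of 14 tested cases, against 0.395% of all genes, with 0 higher. Without high GFP library 1, 2 or 3 the count was 4, 6 and 1, and without GFP-negative library 1, 2 or 3 it was 7, 8 and 5. Bmp5, a BMP ligand chosen after its values were seen, had 42, 53 and 167 normalised counts in GFP-negative cells and 819, 970 and 1301 in high GFP cells (-3.79, SE 0.47, 0.0032), and Wnt5a had 215, 146 and 304 in high GFP cells (-2.91, SE 0.53, 0.025). Wnt5a lost its call without GFP-negative library 1 or high GFP library 1 or 3. Against low GFP cells 0 of 11 telocyte genes passed by limma, with 2 lower and 0 higher at an unadjusted p under 0.05, and 1 fell without GFP-negative library 3. Adamdec1, given above, was lower than in low GFP cells (-1.94, SE 0.24, 0.0065), a call lost without low GFP library 1. Dissociation genes were higher in 6 of 20 cases over high GFP and 4 of 20 over low GFP cells and lower in 0, Junb with log2 fold changes of 2.36 (limma adjusted p = 0.012) and 2.69 (0.0021), the first of which was lost without GFP-negative library 1. Those counts ranged from 2 to 6 and from 1 to 2 when 1 library was left out, lowest over high GFP cells without GFP-negative library 1 or high GFP library 3.

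Few genes of other cell types rose against the GFP-positive sorts, and some contractile and pericyte genes fell. Over high GFP cells 2 of 7 lymphatic genes rose (0.5% of all genes did), and 0 of 11 blood endothelial, 0 of 10 myeloid, 0 of 5 B and plasma cell, 0 of 14 pan-epithelial and 0 of 17 enterocyte genes, while 2 of 10 pericyte genes fell. At an unadjusted p under 0.05 the lists from lymphatic to enterocyte held 2, 1, 0, 1, 2 and 1 higher genes. Smooth muscle and myofibroblast genes fell over high GFP cells in 3 of 15 cases (0.395% of all genes did) and rose in 0. Their median log2 fold change was -1.94, and that of the pericyte list was -2.80. At the unadjusted threshold 11 of 15 and 7 of 10 were lower and 0 higher. With 1 library left out the genes lower ranged from 0 to 2 and from 0 to 3, with 0 without high GFP library 3. Over low GFP cells 1 of 7 lymphatic, 1 of 5 B and plasma cell, 1 of 7 ileal enterocyte and 1 of 5 Paneth genes rose (0.562% of all genes did) and 1 of 9 pericyte genes fell. Ccl21a, the lymphatic endothelial chemokine that Ackr4 scavenges, had 449, 189 and 24 normalised counts in GFP-negative cells, 5, 0 and 4 in high GFP cells, 0, 0 and 0 in low GFP cells, and 137 and 339 in unsorted cells. It was at least 85.3-fold higher than in low GFP cells (limma adjusted p = 0.022), and over high GFP cells its log2 fold change was 5.37 (SE 1.09, 0.047). Mmrn1, another lymphatic gene, had 382, 114 and 11 against 0, 0 and 0 in high GFP cells, at least 51.7-fold higher (0.039). Both were highest in GFP-negative library 1 and lowest in library 3, and few fits with 1 library left out kept these calls: 2 of 6 for Ccl21a over low GFP, 1 of 6 for Ccl21a over high GFP and 1 of 6 for Mmrn1. Mzb1, a plasma cell chaperone chosen after its values were seen, had 81, 285 and 91 normalised counts in GFP-negative cells against 19, 18 and 0 in high GFP cells, 8, 10 and 6 in low GFP cells and 3386 and 3345 in unsorted cells. It passed over low GFP cells (3.87, SE 0.61, limma adjusted p = 0.022), a call kept in 1 of 6 fits with 1 library left out, that without low GFP library 2. Over high GFP cells it did not pass (4.16, SE 1.16, limma adjusted p = 0.21). The part of these cell types in the other differences was not tested.

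**Figure D5:**
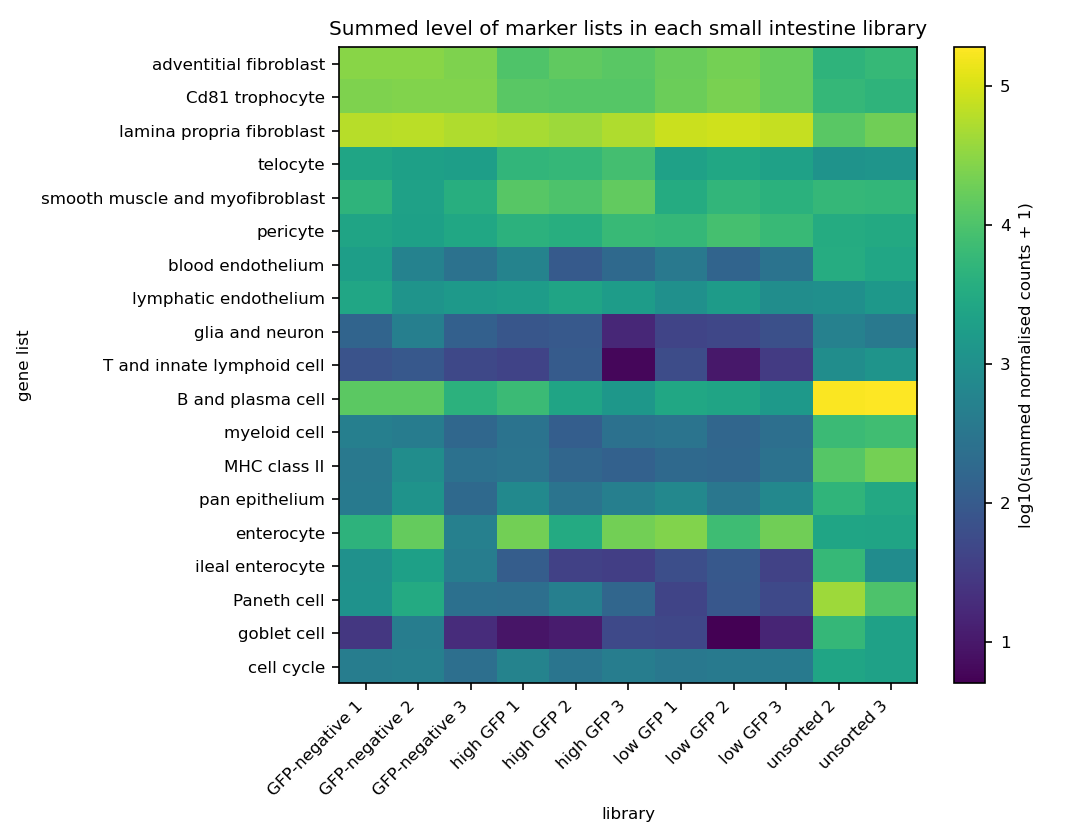
Summed normalised counts of 19 marker lists (rows) in each small intestine library (columns), as log10 of the sum plus 1. The adventitial and trophocyte sums are highest in the 3 GFP-negative libraries, at 24754 normalised counts or more, the ileal enterocyte sums of GFP-negative libraries (444 to 1997) lie above those of the GFP-positive libraries (35 to 113), and the plasma cell sums of the unsorted libraries exceed those of every sorted library.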

How the data were processed

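Small intestine libraries of GFP-negative (n = 3), high GFP (n = 3), low GFP (n = 3) and unsorted cells (n = 2) were read from 3 tables, each holding a pair of groups. Per the submitters' processing notes, TopHat2, Bowtie2, DESeq and mm10 were used. The sources used here give no versions, counting program or use of strand, so genes that overlap an antisense partner are uncertain. The values are scores for the purpose of testing: normalised read counts that the authors scaled and rounded to whole numbers, so no count model was used. The authors also deposited p-values with false discovery rates and log2 fold changes, used here only where named. Reads per library were estimated from the smallest steps between values. Of the GFP-negative values compared, 100% were identical between the unsorted and high GFP tables, and 100% between the unsorted and low GFP tables. The GFP-negative libraries thus had the same scale in each table. Tests stayed within a table except in the joined fit named as such. That fit held only genes present in all 3 tables.

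Genes whose mean reached 10 in either group were tested with limma 3.58.1 (R 4.3.3; trend and robust variance) on log2(value + 1), with no replicate block, at a Benjamini-Hochberg adjusted p of 0.05, and the script was tested on simulated data. The simulation kept only the mean level of each gene and drew new values, with known fold changes in some genes. It used the same noise setting and read value for every library, so it did not carry the spread of the real ones. In sentences on several genes, values in parentheses are the log2 fold change, its SE where given, and the limma adjusted p, in that order. The members, the 48 gene lists and the tests were chosen with earlier results of these data known. Genes are named by a rule: the markers with Col6a1 and Procr; from each list up to 4 genes past the threshold per direction and up to 2 of the highest others; the 15 largest increases and decreases without overlap with a mean of at least 50; and the 10 highest genes of GFP-negative cells. Lists of few members may be given in full, and other names are said to be chosen after their values were seen. A gene at 0 in a whole group was set to 3 reads per library, averaged over the group, to give a lower bound of the fold; this covers counting error only. Motifs were searched in RefSeq windows (GRCm38.p6). Some genes, and the list counts that turn on them, are not reported here.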

Additional observations from a re-analysis of the deposited data

How the results depend on the processing

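Against unsorted cells the 1543 calls became 845 with a replicate block and 960 in limma with neither trend nor robust variance. They stayed within 1.5 times of 1543 under a pseudocount of 0.5 (1300) or 10 (1920), no filter (1514), a mean of at least 50 (1248, of which 51.5% higher against 39.7%), equal totals (1498), medians of ratios (1513), a log2 fold change of at least 1 (1540) and the joined fit of all small intestine groups (1458, 52.4% higher). Leaving out 1 library gave 0 to 1627 calls, and in the joined fit, an alternative chosen after seeing the data, 330 (without unsorted library 2) and 518 (without unsorted library 3) to 1941. Against high GFP cells 111 calls became 171 with a pseudocount of 10, 240 in the joined fit, 21 with neither trend nor robust variance (1316 unadjusted) and 24 to 104 with 1 library left out. Against low GFP cells 84 calls became 148 with a pseudocount of 10, 144 with a mean of at least 50, 130 in the joined fit, 44 with equal totals, 43 with a replicate block, 0 with neither trend nor robust variance (1884 unadjusted) and 6 to 76 with 1 library left out. The cause of these shifts was not tested.

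Same-numbered libraries did not deviate together in every pair: the correlations of their deviations were 0.145 and 0.0724 with unsorted, 0.0465, -0.203 and -0.150 with high GFP and 0.0422, -0.325 and -0.0945 with low GFP libraries. The deviations of 2 unsorted libraries mirror each other, so those 2 values are not separate checks. With so few libraries the correlations cannot settle whether the numbers are pairs, and the main fits had no replicate block. With the replicate block 103 of 138 named genes that passed kept the call, and the count against high GFP was 89. With the block 2 complement genes were higher than in unsorted cells. Of 2558 values of named genes under these settings 1921 were classed as unchanged and 631 as weaker. Another 4 newly passed, all of Procr, and 2 turned sign, both of Fabp6 without unsorted library 2. The log2 fold change of Fabp6 was then 0.21 in the fit of 2 groups and in the joined fit, against -2.72 without unsorted library 3. By the adjusted p alone slightly more calls were lost. With equal totals 133 of 138 named genes kept the call, while 3 values were classed as weaker. Depth limits low genes: 1 read was worth 1.93 normalised counts in the shallowest GFP-negative library.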

Other observations

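The genes in these observations were chosen after their values were seen, apart from Ankrd1 and the gasdermin C gene Gsdmc2. Those are among the 15 largest decreases named by rule. Liver genes varied between GFP-negative libraries. Serpina1c, a liver protease inhibitor, had 1228, 10022 and 6 normalised counts in GFP-negative libraries, 3352, 1555 and 6824 in high GFP, 21611, 1295 and 8246 in low GFP and 208 and 7 in unsorted libraries, and Ttr, the thyroid hormone carrier transthyretin, had 268, 1623 and 0 in GFP-negative and 29 and 0 in unsorted libraries. As for Alb and Apoa1, library 2 was the highest and library 3 the lowest of the GFP-negative ones.

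Gasdermin C genes, which code for pore-forming proteins, were lower in GFP-negative cells in 3 of 3 cases, with a family sum of 0, 6 and 0 normalised counts against 1027 and 645 in unsorted cells. These genes are close copies, so their split of reads is uncertain. Ankrd1, a target of mechanical signalling, was listed at 0 in all GFP-negative libraries and averaged 416.5 normalised counts in unsorted cells, at least 98.1-fold lower in GFP-negative cells.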
